A study of Mus musculus with 3 samples.

Results

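The genes described are the 9 core components of the Hedgehog signalling pathway: the ligands *Shh*, *Ihh*, and *Dhh*, the receptor *Ptch1*, the transducer *Smo*, the transcription factors *Gli1*, *Gli2*, and *Gli3*, and the ligand-binding inhibitor *Hhip*. They were chosen by symbol, and all 9 were found among the 30854 gene symbols of the deposited table. Total RNA came from the embryonic regions of wild-type mouse embryos at the early headfold (EHF) stage, cut from the extraembryonic part, and was hybridized as biotin-labelled cRNA to 3 Illumina Mouse-6 arrays. The labels give the strain as CD-1 and name no treatment, whereas the wild-type stock listed in the paper's methods is ICR. The labels number the arrays as replicates 1, 2, and 3 of 1 group, and there is no second genotype or stage to compare. Whether each holds 1 embryo or a pool is not stated, and the spread between them may be partly technical. With 3 arrays every level has limited precision.

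In Hedgehog signalling, a secreted ligand binds Ptch1 and relieves its block on Smo, a membrane protein that acts in the primary cilium. Smo then keeps Gli2 and Gli3 from being cut into repressors, and Gli activators switch on targets that include *Gli1*, *Ptch1*, and *Hhip*. In the mouse embryo at about this stage *Shh* is known from the node and the axial midline, and *Ihh* from the visceral endoderm and extraembryonic mesoderm. Smo is needed for the signal of both.

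The promoters of 7 of the 9 genes were found in the RefSeq table of the assembly GRCm38.p6; those of *Shh* and *Gli1* were not analysed here. As *Ptch1* and *Hhip* are known Gli targets, the window from 250 bases before to 50 bases after the start was searched on both strands for the Gli motif GACCACCCA. It was in 0 of the 7 promoters and in 83 of 32851 promoters of the table (0.253%). Its shorter part CACCCA, which every copy of the longer motif also holds, was in 0 of the 7 and in 22.2% of all promoters. The 7 differed in their content of the dinucleotide CpG. The 300-base window of *Ptch1* held 47 CpGs, more than 98.6% of all promoters, and that of *Dhh* held 12, more than 60.4%, against a median of 7 over the table. The other 5 held between 17 (*Smo*) and 39 (*Gli3*). The 250 bases before the start are shown for the CpG-richest and CpG-poorest of these members, both on the minus strand, *Ptch1* at chr13:63565736-63565985 and *Dhh* at chr15:98898541-98898790, with each CpG in capitals.
Ptch1: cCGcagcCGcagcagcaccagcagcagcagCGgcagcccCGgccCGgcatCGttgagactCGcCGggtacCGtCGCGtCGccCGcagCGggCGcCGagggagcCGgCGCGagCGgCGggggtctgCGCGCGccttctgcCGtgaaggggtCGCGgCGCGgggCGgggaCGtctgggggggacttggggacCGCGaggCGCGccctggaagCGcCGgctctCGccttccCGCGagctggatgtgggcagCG
Dhh: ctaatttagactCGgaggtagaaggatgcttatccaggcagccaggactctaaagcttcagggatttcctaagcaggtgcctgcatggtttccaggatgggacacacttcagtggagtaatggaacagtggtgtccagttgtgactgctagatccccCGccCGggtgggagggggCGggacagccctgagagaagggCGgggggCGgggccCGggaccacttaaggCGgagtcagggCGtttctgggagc
The arrays measured no promoter activity, so these sequences describe the genes and not the signals.

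Of the 9 genes, *Shh*, *Smo*, and *Gli2* were above background on every array, with a detection p under 0.01. For a gene with 1 probe, the detection p gives how large a fraction of the array's negative controls reached its signal. The same call was made for 6357 symbols, 20.6% of all, and for 3 of the 9 members (33.3%). *Ptch1*, *Gli3*, and *Ihh* missed the call although their mean signals lay above background on all 3 arrays, as described for each. By this second criterion 6 of the 9 members (66.7%) were above background, against 26.3% of all symbols. All 6 have several probes, and of all symbols with several probes 39.9% met this criterion, against 20.8% of those with 1 probe. *Dhh*, *Gli1*, and *Hhip* were below background by both criteria. Background was set on each array as the weakest log2 signal of any 1-probe symbol whose detection p was under 0.01 but not 0, namely 6.69, 6.66, and 6.58 on replicates 1, 2, and 3. Among all 21977 symbols with 1 probe, 0 of those with a detection p of 0.01 or more on an array reached the background level of that array. Signals of different genes come from different probes, so they do not rank the RNAs of different genes by abundance.

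**Figure D1:**
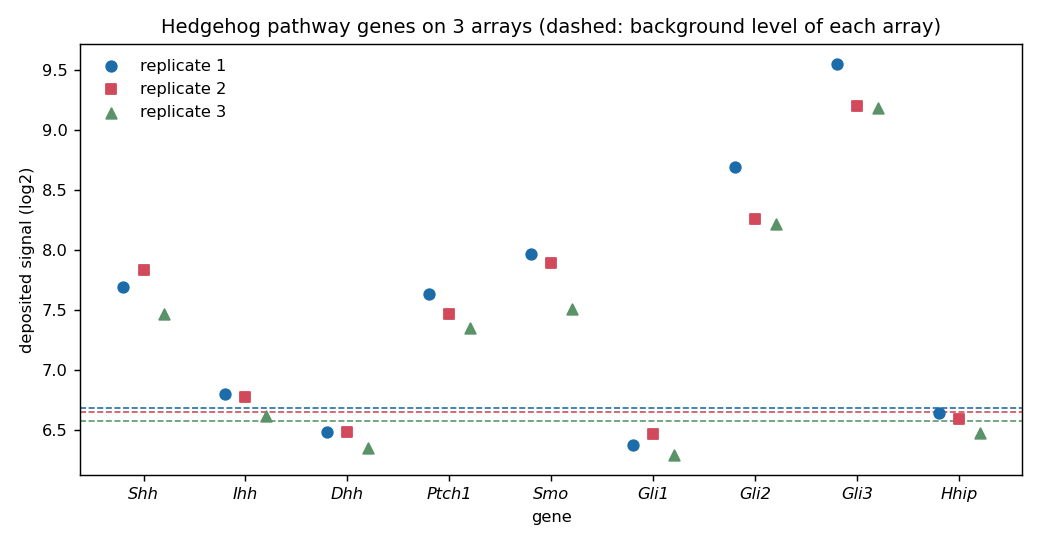
Deposited log2 signal (y axis) of each of the 9 Hedgehog pathway genes (x axis) on replicates 1, 2, and 3, with 1 point per array and a dashed line at the background level of each array. *Dhh*, *Gli1*, and *Hhip* lie below the line of their array on all 3 arrays, *Ihh* lies just above it, and the other 5 lie clearly above it.

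Among the ligands, *Shh* alone was called on every array. Its deposited log2 signal was 7.69, 7.84, and 7.47 on replicates 1, 2, and 3, averaged over 2 probes with a mean of 29.5, 40, and 39 beads. The detection p was 5.71e-07, 5.14e-06, and 0. Where a gene has 2 probes, its detection p combines both, and the sum of their single p-values can be read back from it. For *Shh* that sum was 0.00107, 0.00321, and 0, so both probes were individually above background on every array. After background correction and quantile normalization the level of *Shh* was 2.21 ± 0.15 (SE, n = 3) above background on the log2 scale. This SE was estimated over all symbols and is the same for every gene, so it does not give the spread of a single gene. The values of the single arrays were 2.08, 2.44, and 2.12, with replicate 2 the highest. The one-sided limma test gave an adjusted p of 4.85e-46, and the adjusted p of *Shh* under the alternatives went up to 0.0118, reached when the spread was estimated from that gene alone. These sizes depend on the background correction, and on the deposited signals *Shh* was 1.03 above background.

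*Ihh* was at the edge of detection. Its log2 signal was 6.80, 6.77, and 6.62, above the background of the same array by 0.11, 0.12, and 0.04. The detection p was 0.0988, 0.0497, and 0.000128, so *Ihh* was called on replicate 3 alone, the array where its signal was lowest. It too had 2 probes. The sum of their p-values was 0.444, 0.315, and 0.016, which puts the weaker probe between 0.434 and 0.444 on replicate 1 and between 0.305 and 0.315 on replicate 2. A mean signal cannot exceed that of its stronger probe, so on each array at least 1 probe was above background while the other was not on replicates 1 and 2. The level was 0.28 ± 0.15 (SE, n = 3) above background, with an adjusted p of 0.138 in limma. Over 10 distinct alternatives it lay between 0.0859 and 0.372, with adjusted p between 0.0106 and 0.613, and 2 of them passed the threshold of 0.05. Leaving out replicate 3 was one of these, with an adjusted p of 0.0106.

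*Dhh*, the ligand known best from the developing testis and peripheral nerves, was not above background. Its log2 signal was 6.48, 6.48, and 6.35 from 1 probe, with a detection p of 0.662, 0.374, and 0.654. All 3 values were under the background level of their array. Its level was 0.58 below background (SE 0.15, n = 3), with an adjusted p of 0.999998 in the limma test for a level above background. In bulk RNA of the whole embryonic region, fewer cells of a type and less RNA per cell cannot be told apart.

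*Ptch1*, the receptor and a feedback target of the pathway, had signals well above background but no detection call on any array. Its log2 signal was 7.64, 7.47, and 7.35, which is 0.95, 0.81, and 0.77 above the background of the same array. The detection p was 0.0487, 0.0135, and 0.484, and none passed 0.01. The sum over its 2 probes was 0.312, 0.165, and 0.984. On every array at least 1 probe therefore had a p under 0.01, while the weaker probe lay at 0.302 to 0.312, 0.155 to 0.165, and 0.974 to 0.984. On each of the 3 arrays 1 probe of *Ptch1* was thus above background and the other was not, and whether it was the same probe each time cannot be read from the table. The level from both probes together was 1.92 ± 0.15 (SE, n = 3) above background, with array values of 1.99, 1.84, and 1.91, and the limma test gave an adjusted p of 7.32e-35. The highest adjusted p over the alternatives was 0.00582, and on the deposited signals *Ptch1* was 0.84 above background. Which transcript or part of the gene each probe matches was not analysed here.

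*Smo*, the transducer that Ptch1 holds in check, was above background on every array. Its log2 signal was 7.97, 7.90, and 7.51, averaged over at least 3 probes, with a detection p of 0 on all 3 arrays. Replicate 3 was the lowest on the deposited signals and with background subtracted after normalization. Before that subtraction the normalized values were 7.16, 7.34, and 7.25, with replicate 1 the lowest. The normalized level was 2.39 ± 0.15 (SE, n = 3) above background, with an adjusted p of 1.36e-53 in limma and at most 0.0102 over the alternatives. On the deposited signals *Smo* was 1.15 above background.

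**Figure D2:**
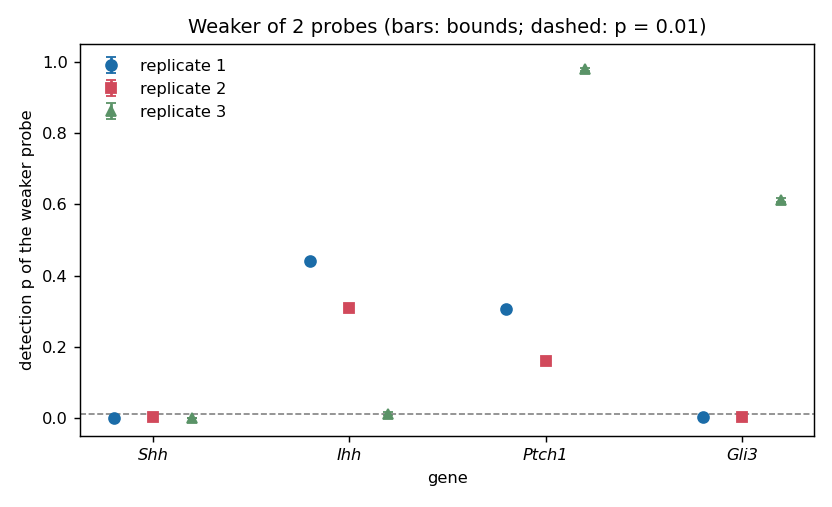
Bounds on the detection p of the weaker probe (y axis) of the 4 members taken to have 2 probes from their detection p (x axis) on replicates 1, 2, and 3, with the midpoint of the bounds as the point and a dashed line at 0.01. *Gli2*, with at least 2 probes and a detection p of 0 on all 3 arrays, is not shown. Both *Shh* probes lie under the line on every array, the weaker *Ptch1* probe lies above it on every array, and the weaker *Gli3* probe lies above it on replicate 3 alone.

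The Gli factors divided into a pair with signal and a gene without. *Gli2*, which acts mainly as an activator, had a log2 signal of 8.69, 8.26, and 8.22 over at least 2 probes, with a detection p of 0 on all 3 arrays. Its level was 3.21 ± 0.15 (SE, n = 3) above background, with an adjusted p of 1.94e-95 in limma. The highest adjusted p of *Gli2* over the alternatives was 0.00808, and on the deposited signals *Gli2* was 1.75 above background. Replicate 1 had the highest deposited signal and replicates 2 and 3 nearly the same. After normalization the values were 8.10, 7.84, and 8.28 on replicates 1, 2, and 3. With background subtracted they were 3.42, 3.02, and 3.20, so the order of the arrays depended on the scale.

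*Gli3*, which acts mainly as a repressor when ligand is absent, had a log2 signal of 9.56, 9.20, and 9.18, which is 2.87, 2.55, and 2.60 above the background of the same array. Its detection p was 1.43e-05, 9.13e-06, and 0.191, so it was called on replicates 1 and 2 and missed on replicate 3. The sum over its 2 probes was 0.00534 and 0.00427 on replicates 1 and 2, where both probes were above background. On replicate 3 the sum was 0.618 and the weaker probe lay between 0.608 and 0.618. The mean signal of *Gli3* on replicate 3, 9.18, was close to the 9.20 of replicate 2, so the lost call followed the weaker probe and not the mean. The level was 4.31 ± 0.15 (SE, n = 3) above background, with an adjusted p of 6.00e-170 in limma and at most 0.00531 over the alternatives. On the deposited signals *Gli3* was 2.67 above background.

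*Gli1* and *Hhip*, both induced by Hedgehog signalling in many tissues, were not above background. *Gli1* had a log2 signal of 6.38, 6.47, and 6.29 from 1 probe, with a detection p of 0.985, 0.437, and 0.899. All 3 values were under the background of their array. *Hhip* had a log2 signal of 6.64, 6.59, and 6.48 from 1 probe, with a detection p of 0.0385, 0.0406, and 0.108. Its values were 0.04, 0.06, and 0.10 under the background of their array. After normalization the level of *Gli1* was 0.64 and that of *Hhip* 0.28 below background (SE 0.15, n = 3), and neither was called by limma under any alternative. A single probe below background limits what can be read from these arrays and does not show that the RNA is absent.

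In the limma test 5 of the 9 members (55.6%) were above background, namely *Shh*, *Ptch1*, *Smo*, *Gli2*, and *Gli3*, against 25.7% of all symbols. All 5 have several probes, and the share of this test among symbols with several probes was not analysed here. The signal of a member was above the background level of its array by a median of 0.84 over the 9, against -0.15 over all symbols. As the choice of well-known developmental genes was made with results of these arrays known, these shares describe the 9 genes and nothing was tested on them as a list.

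**Figure D3:**
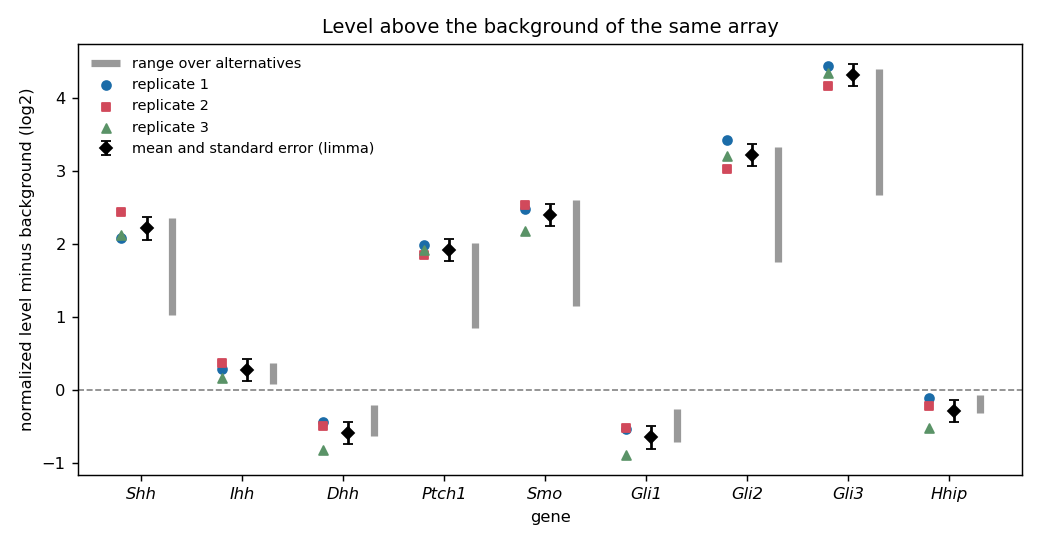
Normalized level minus background on the log2 scale (y axis) for each member (x axis): array values as coloured points, the limma mean with its standard error (the same for every gene) as a black diamond, and the range over the alternatives as a grey bar. The bars of *Shh*, *Ptch1*, *Smo*, *Gli2*, and *Gli3* lie wholly above 0, that of *Ihh* reaches down to 0.0859, and those of *Dhh*, *Gli1*, and *Hhip* lie wholly below 0.

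All 9 members had their lowest deposited signal on replicate 3, and 7 had their highest on replicate 1. The array medians over all symbols followed the same order, at 6.57, 6.51, and 6.42, and the deposited signals had not been normalized between arrays. After quantile normalization the 5 members called by limma varied between arrays with SDs of 0.27 (*Shh*), 0.19 (*Ptch1*), 0.09 (*Smo*), 0.22 (*Gli2*), and 0.22 (*Gli3*). The SD of symbols called on all 3 arrays had a median of 0.17 and quartiles of 0.11 and 0.26, so *Shh* lay just above the upper quartile and the other 4 below it. With the background of each array subtracted, the SDs of the same members were 0.20 (*Shh*), 0.07 (*Ptch1*), 0.19 (*Smo*), 0.20 (*Gli2*), and 0.14 (*Gli3*), so the order of *Ptch1* and *Smo* turned with the scale. For *Shh* replicate 1 was the lowest after normalization, at 6.76 against 7.25 and 7.19.

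The wider pathway was read from 4 further lists of 49 genes, all of which were on the array. Of these, 18 (36.7%) were called on all 3 arrays, against 20.6% of all symbols, 10 were called on some arrays, and 21 on none. Another 7 had mean signals above background on all 3 arrays without the call, which made 25 (51.0%) against 26.3% of all symbols. Those 7 all have several probes. Of all symbols with several probes 39.9% met this criterion, against 20.8% of those with 1 probe. The limma test called 22 (44.9%), against 25.7% of all symbols. The median distance of the 49 genes from background was 0.09 on the log2 scale.

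Of the 5 genes for acylation and release of the ligand, 1 was called. This was *Disp1*, the transporter that releases ligand from the producing cell, with log2 signals of 7.29, 6.86, and 6.78. *Hhat*, which adds palmitate to the ligand, was called on replicate 1 alone. *Scube3*, one of the secreted proteins that carry the ligand, was called on replicates 1 and 2, and *Scube1* and *Scube2* on no array. Of 4 co-receptors, 0 were called. *Cdon*, a ligand-binding co-receptor, had log2 signals of 6.81, 6.77, and 6.59, above background on every array, with a detection p of 0.237, 0.000622, and 0.00666. *Lrp2*, a large endocytic receptor, had log2 signals of 7.77, 7.60, and 6.98, all above background, while its detection p over several probes was 0.038, 0.129, and 0.49. *Boc* and *Gas1* were called on no array. *Lrp2* is also a receptor of the visceral endoderm.

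Of 25 genes for transduction from Smo to Gli, 13 were called (52.0%), the largest share among the 4 further pathway lists, against 20.6% of all symbols. Most of the called genes encode proteins with many other duties, namely the protein kinase A subunits *Prkaca*, *Prkacb*, and *Prkar1a*, the casein kinases *Csnk1d* and *Csnk1e*, the kinase *Gsk3b*, the ubiquitin ligase parts *Spop* and *Cul3*, the arrestin *Arrb2*, and the chaperone-like *Fkbp8*. The log2 signals of *Prkacb* were 11.12, 10.83, and 10.43, and those of *Spop* 11.02, 10.44, and 10.38. More closely tied to Hedgehog signalling were *Evc2*, the ciliary partner of Smo, at 8.01, 8.04, and 7.90, and the Gli kinase *Ulk3* at 7.12, 7.09, and 6.96. The kinase *Stk36* was also called, at 7.58, 7.25, and 7.14. *Sufu*, the main inhibitor of Gli proteins, had log2 signals of 6.75, 6.67, and 6.53 and was called on replicate 1 alone. The ciliary regulator *Kif7* and the receptor *Gpr161* were called on no array. *Evc*, *Btrc*, *Grk2*, and *Rab23* were above background by mean signal without the call. *Gsk3a* and *Iqce* were called on replicates 1 and 2, and *Csnk1a1*, *Tulp3*, and *Dzip1* on no array.

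Of 15 transcriptional targets reported in various tissues, 4 were called (26.7%), close to the 20.6% of all symbols. These were *Foxf1*, a forkhead factor of lateral mesoderm, with log2 signals of 7.15, 7.29, and 6.72, the cyclin *Ccnd1* at 10.57, 10.49, and 10.11, the small GTPase *Rab34* at 8.28, 8.06, and 7.68, and the secreted Wnt inhibitor *Sfrp1* at 9.25, 8.57, and 8.54. All 4 also respond to other signals. *Ccnd2* was above background by mean signal without the call. *Nkx6-1*, a ventral neural tube factor, was called on replicates 1 and 2 with a detection p of 0.00748 and 0.00321 and missed on replicate 3 at 0.0139. The other ventral neural factors *Nkx2-2*, *Olig2*, and *Nkx2-1* were called on no array, as were *Foxf2*, *Foxl1*, *Mycn*, *Nr2f2*, and *Bcl2*. *Foxa2*, a direct target in the floor plate, was called on replicate 2 alone.

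**Figure D4:**
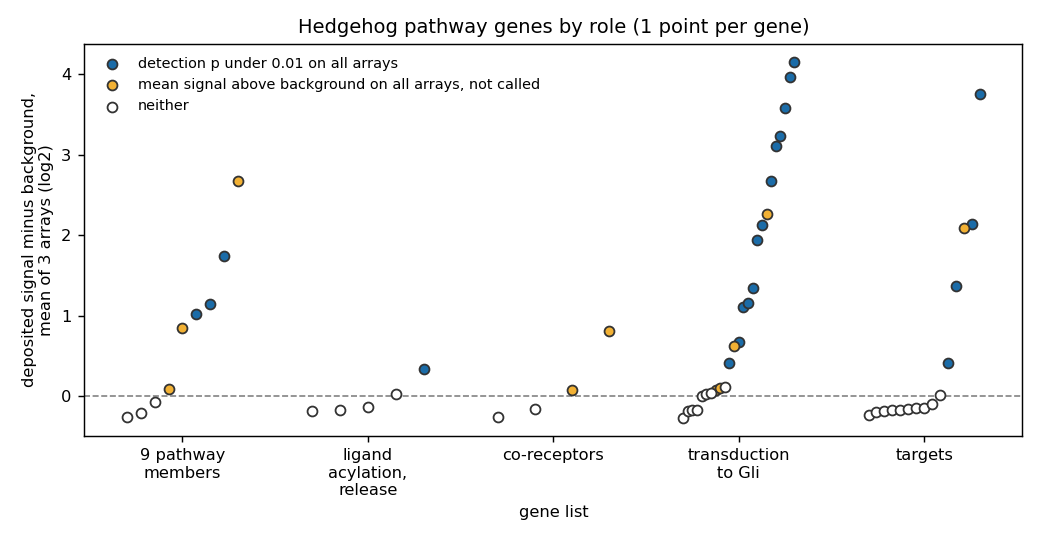
Deposited log2 signal minus the background level, as the mean of 3 arrays (y axis), for each gene of the 9 members and of the 4 further pathway lists (x axis), with 1 point per gene. Blue marks a detection p under 0.01 on all arrays, yellow a mean signal above background on all arrays without that call, and white neither; called genes make up 3 of 9, 1 of 5, 0 of 4, 13 of 25, and 4 of 15.

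The labelled tissue was checked against markers of the cell types it can hold, with the 20.6% of all symbols called as the baseline for each list. Of 11 markers of embryonic ectoderm, streak, and mesoderm, 8 were called on all 3 arrays, with summed linear signals of 8110.1, 5718, and 4528 on replicates 1, 2, and 3, to which the probes of *Dnmt3b* gave the most signal over the 3 arrays. Such sums describe the arrays and, as they add up different probes, do not rank RNAs. *Sox2* and *Six3* were called on some arrays and *Hesx1* on none. Of 7 markers of node and notochord, a known source of *Shh*, 4 were called (*T*, *Chrd*, *Nog*, and *Cer1*). *Cer1*, which is known mainly as a marker of anterior endoderm and does not by itself mark the node, was not above background in limma (0.23 on the log2 scale, adjusted p 0.255), and *Noto*, *Foxa2*, and *Foxj1* were called on some arrays. In limma these 3 had levels of -0.28, -0.35, and -0.24 against background (adjusted p 0.999998 for each), and the mean signals of *Noto* and *Foxa2* were under background on all 3 arrays. The summed signal of the 7 markers was 2549.5, 1879, and 1365, with the most signal from the probe of *T*, which also marks the streak. Of 12 markers of visceral endoderm, a known source of *Ihh*, 11 were called and *Afp* was missed on replicate 3. Their summed signal was 14453, 15547, and 7323, with the most signal over the 3 arrays from the probe of *Spink3*. It was lowest on replicate 3, as were the deposited sums of all other lists and the signals of all 9 members. After normalization and with background subtracted, every visceral endoderm marker except *Apoa2* was still lowest on replicate 3. *Spink3* was at 7.16, 7.01, and 5.58, *Ttr* at 6.44, 6.55, and 5.32, and *Apoa2* at 3.19, 4.31, and 3.45. This was not particular to visceral endoderm. All markers of node and notochord and of extraembryonic ectoderm were lowest on replicate 3 too, as were most of the remaining markers. Before the background was subtracted, *Apoa1*, *Apoa2*, *Apoa4*, and *Trf* were lowest on replicate 1, with *Apoa1* at 11.18, 11.70, and 11.35. With background subtracted, *Shh*, *Ptch1*, *Gli2*, and *Gli3* were not lowest on replicate 3, while the other members were. The reason was not tested. *Ihh* had its only call on replicate 3. Its level above background was the lowest there, at 0.17 against 0.29 and 0.37 on replicates 1 and 2. Its normalized level before the background was subtracted was the highest there, at 5.25 against 4.98 and 5.18, while the background level itself was 4.68, 4.81, and 5.08 after normalization. The part of these cells in the signal of *Ihh* was not tested.

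Of 8 markers of extraembryonic mesoderm and blood, 2 were called (25%, close to that baseline), *Bmp4* and *Tal1*, with summed signals of 1055, 1004, and 864.5 and the most signal from *Bmp4*. *Hand1* was called on replicates 1 and 2 and was above background in limma (0.35 on the log2 scale, adjusted p 0.0422). *Kdr* was called on replicate 1 alone. The embryonic globins *Hba-x* and *Hbb-bh1* and the blood regulators *Gata1* and *Runx1* were called on no array. Of 8 markers of extraembryonic ectoderm 3 were called, *Cdx2*, *Rhox5*, and *Tfap2c*, with summed signals of 2556, 2426, and 1483 and the most signal over the 3 arrays from *Cdx2*. *Esrrb* was called on replicate 2 alone, and *Elf5*, *Eomes*, *Ascl2*, and *Gcm1* on no array. *Cdx2* is also expressed in the posterior embryo.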

How the data were processed

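RNA of the embryonic region at the EHF stage was measured on 3 arrays of a single group, mapped by the labels. The authors deposited log2 signals averaged over the probes of each gene symbol and not normalized between arrays, with mean bead numbers, the bead standard error as a linear intensity (not used here), and detection p-values. The labels name Partek, without a version; the normalization used in the study is not given in the sources used here. A symbol was taken to have 1 probe (21977 symbols) where bead means were whole and detection p lay on steps of 1 in 936 on all 3 arrays (tolerance 0.002). For 2 probes the p-value is that of a sum of 2 uniform values, and inverting it gave whole steps on all arrays for 97.7% of 4803 symbols (tolerance 0.02).

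Genes were called at detection p under 0.01 on all 3 arrays. Levels were corrected by normexp from detection p, with an offset of 16, quantile normalized, and set to log2. The level minus the background level of the array was tested with limma (lmFit, eBayes, one-sided) over 30854 symbols with Benjamini-Hochberg adjustment at 0.05. The fit gave every gene the same SE, which means that the spread enters the adjusted p-values as a known number, and their range over alternatives is therefore given. The code was tested on simulated data. All members are named, and of the further lists every called gene. A gene first listed with them was left out and is not reported here. Members and lists were chosen with earlier results of these data known. Older symbols (*Adrbk1*, *Foxf1a*, and *Tcfap2c* for *Grk2*, *Foxf1*, and *Tfap2c*) and promoters came from RefSeq GRCm38.p6. Alternatives were other detection rules, normalizations, offsets, background levels, and filters, no moderation, and leaving out each replicate. Python 3.11.15, numpy 2.4.6, pandas 2.3.3, matplotlib 3.10.9, R 4.3.3, and limma 3.58.1 were used.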

Additional observations from a re-analysis of the deposited data

How the results depend on the processing

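Requiring a detection p under 0.01 on at least 1 array gave 5 of the 9 members in place of 3, 28 of the 49 further pathway genes in place of 18, and 10172 symbols in place of 6357. The limma test gave 5 members. The mean signal at or above background on every array, a criterion chosen after seeing the data, gave 6 members. The added members came from *Ihh*, *Ptch1*, and *Gli3*, whose combined detection p rests on a weaker probe. Leaving out 1 replicate at a time gave 3 to 4 members, 18 to 22 pathway genes, and 6524 to 7427 symbols. The count of members above background in limma was 5 and became 6, by *Ihh*, under median scaling (adjusted p 0.0431) and without replicate 3 (0.0106). Leaving out the normalization after normexp was the same test as median scaling, since a shift per array cancels against its background. No member changed the sign of its level in any alternative run. *Dhh* and *Gli1* were not tested under the filter on low values, which removed them. No paired analysis was possible because the 3 arrays belong to 1 group. The size of a level depended on the background correction: on the deposited signals, without normexp, the log2 level above background was 1.03 for *Shh*, 0.84 for *Ptch1*, 1.15 for *Smo*, 1.75 for *Gli2*, and 2.67 for *Gli3*.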
